A study of Mus musculus with 2 samples.

Results

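The respiratory chain genes comprise the nuclear and mitochondrial genes for subunits of complexes I to V. Members were chosen by symbol alone, as the Ndufa, Ndufb, Ndufc, Ndufs and Ndufv subunits, the Uqcr genes, Cox4 to Cox8, Sdha to Sdhd, the Atp5 genes and the mt-encoded protein genes. Ndufa4l2 was left out. The rule found 97 genes among 32285 features, of which 84 were nuclear and 13 were mt-encoded. Of the nuclear genes, 36 belonged to complex I, 4 to complex II, 8 to complex III, 19 to complex IV and 17 to complex V. The mitochondrial genome supplied 7 genes of complex I, 1 of complex III, 3 of complex IV and 2 of complex V. Ndufa4 was counted with complex IV, and Cox7a2l, which helps to join complexes III and IV, was kept there by its symbol.

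The study asked what happens to kidney repair when the oxygen sensors PHD1, PHD2 and PHD3 are deleted in endothelial cells (ECs) after ischemia-reperfusion injury (IRI). RNA of single cells was read from the injured kidney of 1 Cre- mouse and of 1 littermate labelled PHDTiEC. The PHDTiEC mouse carried Cdh5-CreERT2 together with floxed alleles of the 3 sensors (Phd1f/f and Phd2f/f as well as Phd3f/f), and its Cre is driven by the Cdh5(PAC) promoter of endothelium. The label Cre- names no other allele. Mice were males 8 to 10 weeks old at surgery, in which 1 renal pedicle was clamped for 25 minutes. Tamoxifen was given to both in 4 doses of 3 mg per mouse, and kidneys were taken on day 14. Each genotype is therefore 1 library of 1 mouse, so no difference between genotypes could be tested, and genotype, mouse and library cannot be told apart. The 95% intervals given beside ratios (exact Clopper-Pearson, from the split of UMIs between the libraries) cover counting error only.

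Complexes I to IV pass electrons from NADH and succinate to oxygen, and complexes I, III and IV pump protons out of the mitochondrial matrix. Complex V (ATP synthase) uses the return of those protons to make ATP. Most subunits are encoded in the nucleus and imported, while a small set at the core of complexes I, III, IV and V is transcribed inside the organelle from its own genome. Proximal and distal tubule cells depend on this machinery for solute transport, whereas endothelium is known for making much of its ATP by glycolysis. Under low oxygen, HIF is known to switch some subunits for others and to divert pyruvate from mitochondria.

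The libraries held 136004367 and 146758812 UMIs (Cre- and PHDTiEC), and 8548 and 9309 barcodes passed the filters, with 28 barcode sequences kept in both. Barcodes over the mitochondrial limit of 50% made up 3.75% and 1.98%, and the median mitochondrial share of kept barcodes was 4.13% and 3.07%. Clustering, made without the chain genes and mt- genes, gave 29 clusters, from which 19 cell classes were named by markers, and 8 clusters stayed with their number. Levels are counts per 1000000 UMIs of all genes other than mt- genes (CPM), and ratios are log2 of the PHDTiEC library over the Cre- library. Of the targeted genes, Egln1 (PHD2) stood at 70.9 and 208 CPM in endothelial-like cells, Egln3 (PHD3) at 27.03 and 165, and Egln2 (PHD1) at 46.4 and 40.5. None was near 0 in the library labelled PHDTiEC, and 3′ counts do not show whether floxed exons were lost, so the deletion was not checked by these values.

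Promoter windows of the nuclear members were searched for short letter motifs, and no link of these letters to the ratios between libraries was tested. In RefSeq windows of 300 bases on GRCm38.p6 (250 before to 50 after the start), 67 of the 84 nuclear members had an entry, and Cox4i2 and Cox4i1 were among those without one. Windows were searched on both strands, counting a gene once. The NRF1 letters GCGCATGC lay in 10 of 67 members (14.9%) against 3.05% of all 27025 genes. The YY1 letters AAGATGGC lay in 9 (13.4% against 3.19%), the ERR letters AAGGTCA in 8 (11.9% against 5.38%) and the ETS letters CCGGAAGT in 5 (7.46% against 4.31%). The HIF core ACGTG lay in 16 members, or 23.9% against 21.8% of all genes. A match is a description of letters and not a bound site. The following 4 stretches of 140 bases run from 120 bases before the start to 20 after it, with the searched letters in capitals. Atp5g1 (chr11:96075612-96075751, minus strand) was among the members with the lowest ratios in endothelial-like cells, and Atp5k (chr5:108434380-108434519, minus strand) was among the highest in 5 classes. Cox7a1 (chr7:30184051-30184190, plus strand) and Ndufv3 (chr17:31519995-31520134, plus strand) stood higher in mREC-like cells of the library labelled PHDTiEC. Cox7a1 rested on few UMIs there and had the opposite order in cREC-like cells. The 4 genes were picked with their ratios known. Ndufc2 and Atp5md, also among the highest in mREC-like cells, held none of the searched letters and are not shown. Capitals mark ACGTG or its reverse complement in Atp5g1, Cox7a1 and Ndufv3, including a CACGTG that reads alike on both strands in Atp5g1. In Atp5k they mark 2 overlapping GCGCATGC matches, 1 on each strand.
Atp5g1: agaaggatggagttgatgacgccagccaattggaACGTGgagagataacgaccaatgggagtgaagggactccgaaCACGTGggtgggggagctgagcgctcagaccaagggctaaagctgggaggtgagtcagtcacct
Atp5k: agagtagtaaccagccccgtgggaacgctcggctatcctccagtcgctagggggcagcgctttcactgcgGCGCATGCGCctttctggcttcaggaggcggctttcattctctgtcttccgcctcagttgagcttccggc
Cox7a1: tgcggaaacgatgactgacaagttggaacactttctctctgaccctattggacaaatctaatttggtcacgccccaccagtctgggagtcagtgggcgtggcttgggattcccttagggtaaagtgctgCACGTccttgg
Ndufv3: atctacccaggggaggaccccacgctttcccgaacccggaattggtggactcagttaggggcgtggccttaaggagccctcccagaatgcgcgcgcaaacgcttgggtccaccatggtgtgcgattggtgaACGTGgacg

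Chain transcripts were most abundant in tubule cells that reabsorb solute. The summed 84 nuclear genes reached 65422 and 60769 CPM in proximal tubule (PT)-like cells of the Cre- and PHDTiEC libraries, followed by intercalated (IC)-like cells at 57816 and 52854. Distal convoluted tubule (DCT)-like cells held 51735 and 46768, and thick ascending limb (TAL)-like cells held 44615 and 38245. At the other end, neutrophil-like cells held 16732 and 16421, B-like cells 17947 and 17722, and macrophage-like cells 21444 and 20391. Medullary endothelial (mREC)-like cells stood near the leukocytes at 21614 and 19398, and cortical endothelial (cREC)-like cells held 30731 and 22836. The cREC-like level lay above every named leukocyte class in the Cre- library, but in the PHDTiEC library it lay below T-like cells at 24756 and dendritic-like cells at 23383. PT-like cells were thus highest and neutrophil-like cells lowest in both libraries, while the place of cREC-like cells in this order differed between them. That place depends on free RNA, whose estimated share in cREC-like cells was 56.0% and 14.4%. With it subtracted, their nuclear level was 15929 and 20240 CPM, and the 56.0% may be too high. With 1 mouse a library, the spread between mice around these levels is unknown.

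**Figure D1:**
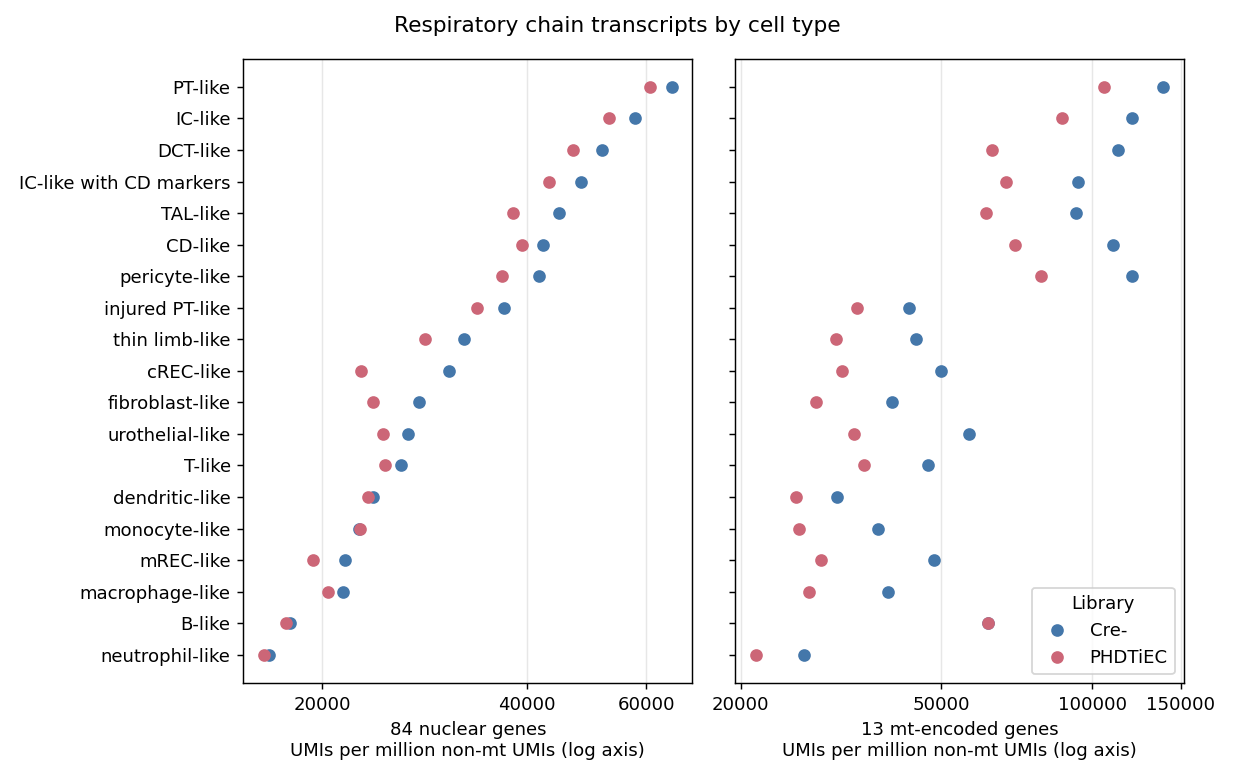
Summed levels of the 84 nuclear (left) and 13 mt-encoded (right) chain genes in CPM (per 1000000 non-mt UMIs) on log axes, in 19 named cell classes, with 1 point per library. PT-like cells are highest in both panels (65422 and 60769 nuclear, 138575 and 105687 mt-encoded) and neutrophil-like cells lowest, and the PHDTiEC points lie left of the Cre- points in all mt-encoded pairs.

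The mt-encoded genes followed a similar order with exceptions. PT-like cells held 138575 and 105687 mt-encoded CPM, and neutrophil-like cells 26737 and 21403. Pericyte-like cells, mural cells whose leading genes included Myh11, Acta2 and Ren1, held 119871 and 79155, above TAL-like cells at 92643 and 61560. The ratio of mt-encoded to nuclear UMIs was highest in B-like cells (3.46 and 3.50) and then in pericyte-like cells (2.87 and 2.15), and lowest in injured PT-like cells (1.17 and 1.01). In pericyte-like cells the estimated share of free RNA was 25.8% and 42.3%, and its part in their values was not tested. Across the 19 classes, log2 nuclear and mt-encoded levels correlated with Pearson's r of 0.85 and 0.82 and Spearman's rho of 0.77 and 0.80. These values are descriptions over classes that share libraries, depth and free RNA. Among single mREC-like cells (185 and 227), r between the shares was 0.068 and 0.055. It was 0.017 and 0.16 among PT-like, -0.082 and -0.057 among macrophage-like, and 0.46 and 0.40 among TAL-like cells (424 and 426). Spearman's rho was 0.28 and 0.40 among PT-like and 0.34 and 0.18 among TAL-like cells.

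Individual nuclear members largely shared this order. Of 81 members with at least 100 UMIs over the named classes, 58 were highest in PT-like cells, 15 in IC-like cells, 2 in pericyte-like cells and 1 in each of the remaining leading classes. Among the 15 members with at least 100 UMIs in every class, the median range between the highest and the lowest class was 2.11 on the log2 scale. Ndufa4, a small subunit attached to complex IV, had the widest range of 3.61, from 183 CPM in neutrophil-like to 2227 in PT-like cells over both libraries. Cox7c and Cox6c, small accessory subunits of complex IV, ranged over 2.87 and 2.57, and Atp5d, a subunit of the ATP synthase stalk, over 2.40. Cox7a2l ranged over 2.31, from 116 in neutrophil-like to 577 in urothelial-like cells, and was the exception among these 5 in not peaking in PT-like cells.

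Both groups of genes stood lower in the library labelled PHDTiEC, and the mt-encoded genes by more. The nuclear sum was lower in 18 of 19 named classes, with the interval below 0 in 16 and above 0 in none, a median ratio of -0.13 and a range from -0.43 in cREC-like to 0.0039 in monocyte-like cells. The mt-encoded sum was lower in 19 of 19 classes, with the interval below 0 in 18, a median of -0.52 and a range from -0.83 in DCT-like to -0.0029 in B-like cells. For comparison, the median ratio over all genes lay between -0.041 and 0.12 in these classes. After subtraction of estimated free RNA the nuclear sum was lower in 15 of 19 classes and the mt-encoded sum in 17 of 19. The mt-encoded ratio was the lower of the pair in 18 of 19 classes, with B-like cells the exception, and in 7 of the 8 numbered clusters. In cluster 7 (384 and 346 barcodes, median depth 1044 and 803 UMIs) the order was opposite, with a nuclear ratio of -0.38 (-0.40 to -0.36) and an mt-encoded ratio of -0.085 (-0.098 to -0.072). The estimated share of free RNA in cluster 7 was 82.3% and 104%, so its ratios are not read as those of a cell type. Library-wide values moved with the mt-encoded sums. The mt- genes took 8.57% of all UMIs in the Cre- and 6.04% in the PHDTiEC library. In barcodes under 100 UMIs, which hold mostly free RNA, they took 12.7% and 10.2%. The part of these library-wide values in the mt-encoded difference was not tested.

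**Figure D2:**
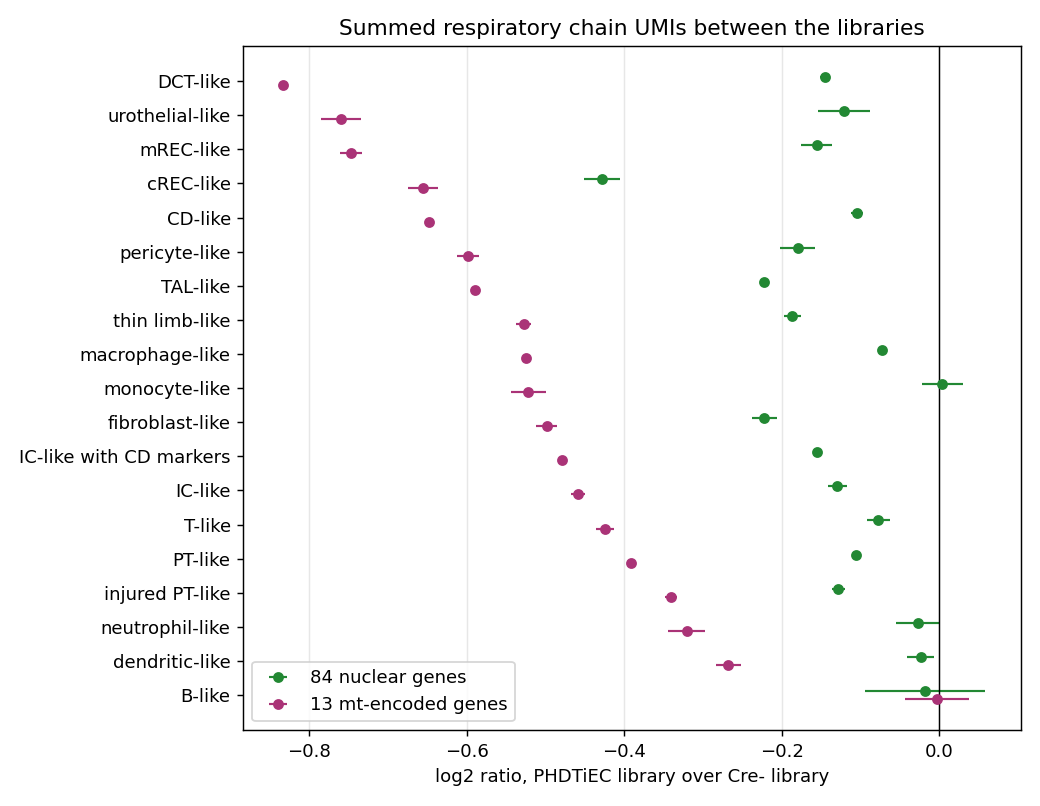
Log2 ratio of summed chain UMIs, PHDTiEC library over Cre- library, for 84 nuclear (green) and 13 mt-encoded (purple) genes in 19 named classes, with bars for the 95% counting interval. Mt-encoded ratios run from -0.83 in DCT-like to -0.0029 in B-like cells, and nuclear ratios lie nearer to 0 in all classes but B-like cells.

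The mt-encoded genes did not move alike. mt-Atp6, a membrane subunit of ATP synthase, had the lowest ratio in 14 of the 15 named classes in which all 13 genes had at least 100 UMIs, and its median ratio over 19 classes was -0.71, lower in 19 of 19. mt-Nd4l, a membrane subunit of complex I, was among the 3 highest ratios in 13 of 15 classes, with a median of -0.12. mt-Nd6, the complex I subunit read from the opposite strand (M:13552-14070, minus), had a median of -0.18 over 15 classes. Annotated genes overlap for mt-Atp8 (M:7766-7969) with mt-Atp6 (M:7927-8607) and for mt-Nd4l (M:9877-10173) with mt-Nd4 (M:10167-11544), so the split of UMIs within these pairs is uncertain.

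**Figure D3:**
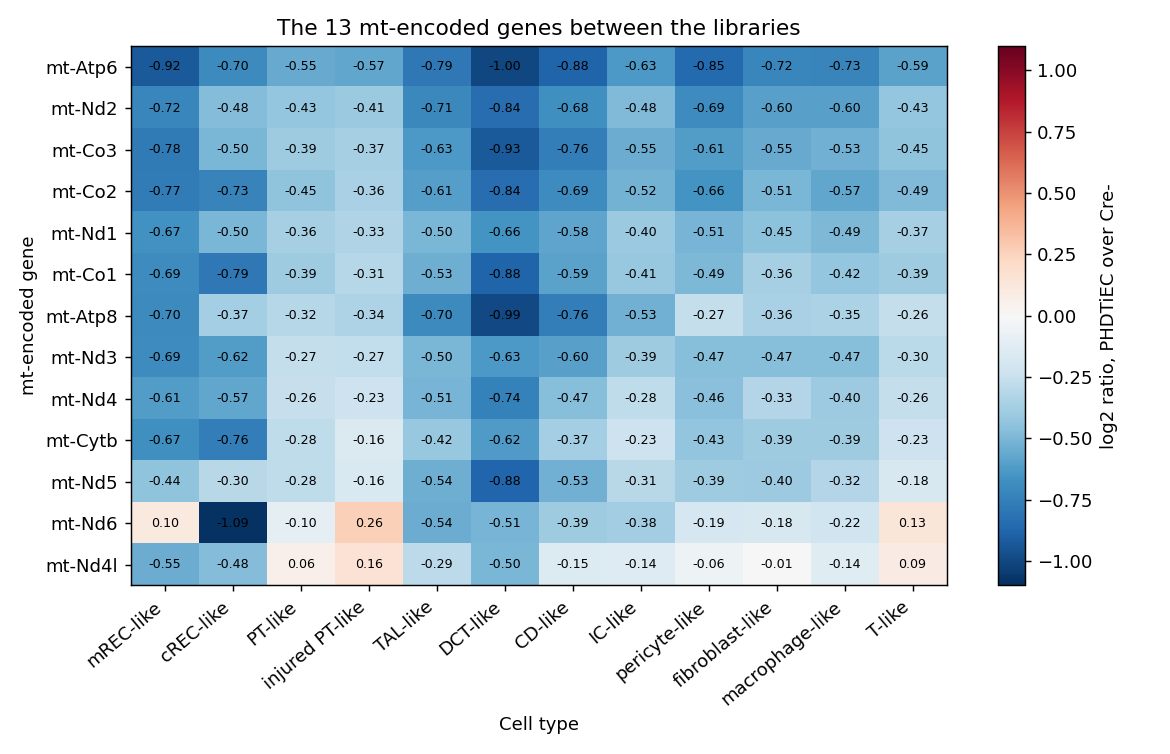
Log2 ratio, PHDTiEC library over Cre- library, of each of the 13 mt-encoded genes (vertical axis) in 12 named classes (horizontal axis), by colour and printed value. The mt-Atp6 line runs from -0.55 to -1.005, and positive values occur in the mt-Nd4l and mt-Nd6 lines.

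In mREC-like cells, mt-Atp6 measured 8953 CPM in the Cre- and 4723 in the PHDTiEC library (ratio -0.92, interval -0.96 to -0.89). mt-Co1, the catalytic core of cytochrome c oxidase, measured 8804 and 5443 (-0.69, -0.73 to -0.66). mt-Cytb, the core of complex III, measured 4554 and 2858 (-0.67, -0.72 to -0.63). mt-Co3 and mt-Co2, the other mt-encoded subunits of complex IV, had ratios of -0.78 and -0.77, and mt-Atp8, the second subunit of ATP synthase, -0.70. Of complex I, mt-Nd2 measured -0.72, mt-Nd3 -0.69, mt-Nd1 -0.67, mt-Nd4 -0.61, mt-Nd4l -0.55 and mt-Nd5 -0.44. mt-Atp6 was thus the furthest from 0 of the 13 genes in these cells, while the interval of mt-Nd6 reached 0, at 44.2 and 47.5 CPM (0.10, -0.33 to 0.54). In PT-like cells the same genes lay closer, with mt-Atp6 at 23167 and 15807 (-0.55) and mt-Co1 at 20498 and 15629 (-0.39). mt-Nd4l had the opposite sign there, at 1610 and 1675 (0.057, 0.027 to 0.087).

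Endothelial-like cells (315 and 440 barcodes), the mREC-like and cREC-like clusters together, are where Cre was meant to act. Their nuclear sum was 25084 and 20537 CPM (-0.29, -0.30 to -0.27), which is 18.1% lower, and their mt-encoded sum was 49086 and 29853 (-0.72, -0.73 to -0.71), which is 39.2% lower. All 8 endothelial markers were detected in both libraries. Tubule RNA differed between the libraries: in cREC-like cells the 5 TAL markers summed to 1386 and 245 CPM, with 5 of 5 higher in the Cre- library, and Umod alone held 1192 and 196. Macrophage markers ran the other way in cREC-like cells, where the 8 markers summed to 750 and 1464 CPM with 2 of 8 higher in the Cre- library, whereas in mREC-like cells they summed to 533 and 376 with 7 of 8 higher in the Cre- library. The part of either in the chain ratios was not tested. The estimated share of free RNA was 27.3% and 8.17% in endothelial-like cells, and 56.0% and 14.4% in cREC-like cells. Over barcodes with no tubular marker UMI (140 and 235), the nuclear ratio was -0.16 and the mt-encoded ratio -0.64. After subtraction of free RNA the ratios in pooled endothelial-like cells were 0.021 and 0.44. Both rest on the cREC-like cells of the Cre- library, whose mt-encoded level was 50105 CPM before the subtraction and 179 after it. The estimate counts each marker UMI of another cell type as free RNA, so a barcode that holds RNA of more than 1 cell raises it, and 56.0% may be too high.

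The mREC-like cells (185 and 227 barcodes) held less free RNA, estimated at 9.66% and 5.07%. Tubule RNA differed between the libraries here too. The 5 TAL markers summed to 215 and 24.4 CPM, with 5 of 5 higher in the Cre- library. The 7 collecting duct markers ran the other way, at 59.0 and 84.1 CPM with 2 of 7 higher in the Cre- library. The part of this RNA in the chain ratios was not tested. Their nuclear sum was 21614 and 19398 (-0.16, -0.18 to -0.14), and their mt-encoded sum 48459 and 28879 (-0.75, -0.76 to -0.73), which is 40.4% lower. With free RNA subtracted these ratios were -0.081 and -0.66. By complex, the nuclear ratios were close together, at -0.12 for complexes I and II, -0.18 for complex III, -0.20 for complex IV and -0.14 for complex V. The interval for complex II alone reached 0 (-0.28 to 0.037). The mt-encoded ratios were -0.65, -0.67, -0.74 and -0.92 for complexes I, III, IV and V. Within each of these 4 complexes, the mt-encoded subunits were therefore further below the Cre- library than their nuclear partners.

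In cREC-like cells (130 and 213 barcodes) the nuclear sum was 30731 and 22836 (-0.43, -0.45 to -0.41), and its size depended on which barcodes and UMIs were counted. It was -0.19 without the 7% of barcodes with the highest doublet scores, -0.22 over barcodes with no tubular UMI and 0.35 after subtraction of free RNA. The mt-encoded ratio after subtraction, against 179 CPM, is no measure of a change. Of 76 nuclear members with at least 100 UMIs, 25 had a ratio past -0.5 and 0 past 0.5, against 7.09% lower and 8.52% higher among all 3933 genes. Without the highest doublet scores, 4 of 73 members were past -0.5, and the share of all genes was not counted in that setting.

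A single nuclear member past a ratio of 0.5 in either direction was uncommon elsewhere in the endothelium. In endothelial-like cells 2 of 77 nuclear members lay past -0.5 and 0 past 0.5, against 4.82% and 4.89% of all 7447 genes with at least 100 UMIs, while 11 of 13 mt-encoded genes lay past -0.5. In mREC-like cells 0 of 77 nuclear members lay past -0.5 (4.11% of all genes) and 1 past 0.5 (5.8%), with 11 of 13 mt-encoded genes past -0.5. Yet 73 of 77 nuclear members in endothelial-like and 67 of 77 in mREC-like cells were below 0, with medians of -0.28 and -0.15 over members with at least 10 UMIs. The median over all genes with at least 10 UMIs was -0.042 and -0.017. Of all genes with at least 100 UMIs, 51.4% and 49.7% were below 0.

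Atp5g1, which encodes the proton-carrying c subunit of ATP synthase, was among the 5 lowest nuclear members in endothelial-like cells, at 319 CPM in the Cre- and 218 in the PHDTiEC library (-0.55, -0.69 to -0.41). Ndufa4 measured 610 and 434 (-0.49, -0.59 to -0.39), and Cox8a, a small complex IV subunit, 959 and 686 (-0.48, -0.56 to -0.40). Ndufb8, an accessory subunit of complex I, measured 251 and 183 (-0.46, -0.61 to -0.30). In mREC-like cells Ndufa9 (-0.42, -0.84 to 0.0069) and Atp5c1, in the rotating stalk of ATP synthase (-0.38, -0.55 to -0.20), were also among the 5 lowest. Ndufa10 (-0.85) and Atp5g3 (-0.67) were so in cREC-like cells. With free RNA subtracted, Atp5g1 in endothelial-like and Atp5g3 in cREC-like cells turned in sign. Ndufa10 in cREC-like cells did so over barcodes with no tubular UMI. Ndufv2, which belongs to the NADH-oxidising part of complex I, and Sdhd, the membrane anchor of complex II, were among the 5 lowest in 4 of 8 classes each. Ndufv1, which carries the NADH site, Ndufa9 and Ndufb4 were so in 2 each. Outside the endothelium, Ndufa1 in PT-like cells (-0.23), Atp5j2 in DCT-like (-0.36), Ndufs8 and Ndufs1 in collecting duct (CD)-like (-0.26 and -0.27) and Ndufa12 in macrophage-like cells (-0.23) were among the 5 lowest of 1 class.

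Other members ran against the group. Ndufv3, an accessory subunit beside the NADH site, measured 150 and 187 CPM in endothelial-like cells (0.32, 0.14 to 0.50) and 122 and 181 in mREC-like cells (0.57, 0.33 to 0.81). It rested on 207 and 445 UMIs in mREC-like cells, and it was the 1 nuclear member there past 0.5. Over 18 classes its ratio was above 0 in 9 and below 0 in 9, so no common direction was seen. Ndufb1-ps, annotated as a bidirectional promoter lncRNA at the Ndufb1 locus, was above 0 in 15 of 19 classes, with a median of 0.066. Atp5k, a subunit near the dimer interface of ATP synthase, was above 0 in 11 of 18 classes, with a median of 0.053. Ndufa3, an accessory subunit of complex I, was above 0 in 13 of 18 classes, with the interval above 0 in 5 and below 0 in 3, and a median of 0.059. Ndufc2 was among the 5 highest in endothelial-like (0.11), mREC-like (0.095) and cREC-like cells (0.18), each with an interval that reached 0. The same held for Ndufs1 in endothelial-like (0.22) and mREC-like cells (0.46), for Atp5md in mREC-like cells (0.087), and for Ndufs4 (0.12) and Ndufs5 (-0.089) in cREC-like cells. Uqcrc1, a core subunit of complex III, was among the highest in DCT-like (0.076) and TAL-like cells (0.018). Cox7a2l measured 441 and 446 in endothelial-like cells (0.017, -0.091 to 0.13), and its share of Cox7a family UMIs was 42.9% and 47.7% there against 16.9% and 18.8% in PT-like cells.

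Several subunits of complex IV have tissue isoforms, and these showed cell-type patterns of their own. Cox4i2, the isoform known from lung and from cells under low oxygen, was highest in pericyte-like cells at 128 and 95.4 CPM and in cluster 23, which carried endothelial and mural markers side by side, at 82.6 and 80.8. In mREC-like cells it measured 7.08 and 28.0 (1.99, 1.09 to 3.01), from 12 UMIs in 10 cells and 69 UMIs in 28 cells. Macrophage-like cells, which should lack the gene, had a UMI of it in 11 of 2255 and 10 of 2497 cells at median depths of 7122 and 7540 UMIs, against 6881 and 8905 in mREC-like cells. In endothelial-like cells Cox4i2 measured 5.84 and 22.3 (1.93). That ratio was 0.50 where cell types were called from markers without clusters, and 0.20 with cluster 23 pooled in. Cox4i1 supplied 99.5% and 97.5% of the Cox4i UMIs in endothelial-like cells.

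**Figure D4:**
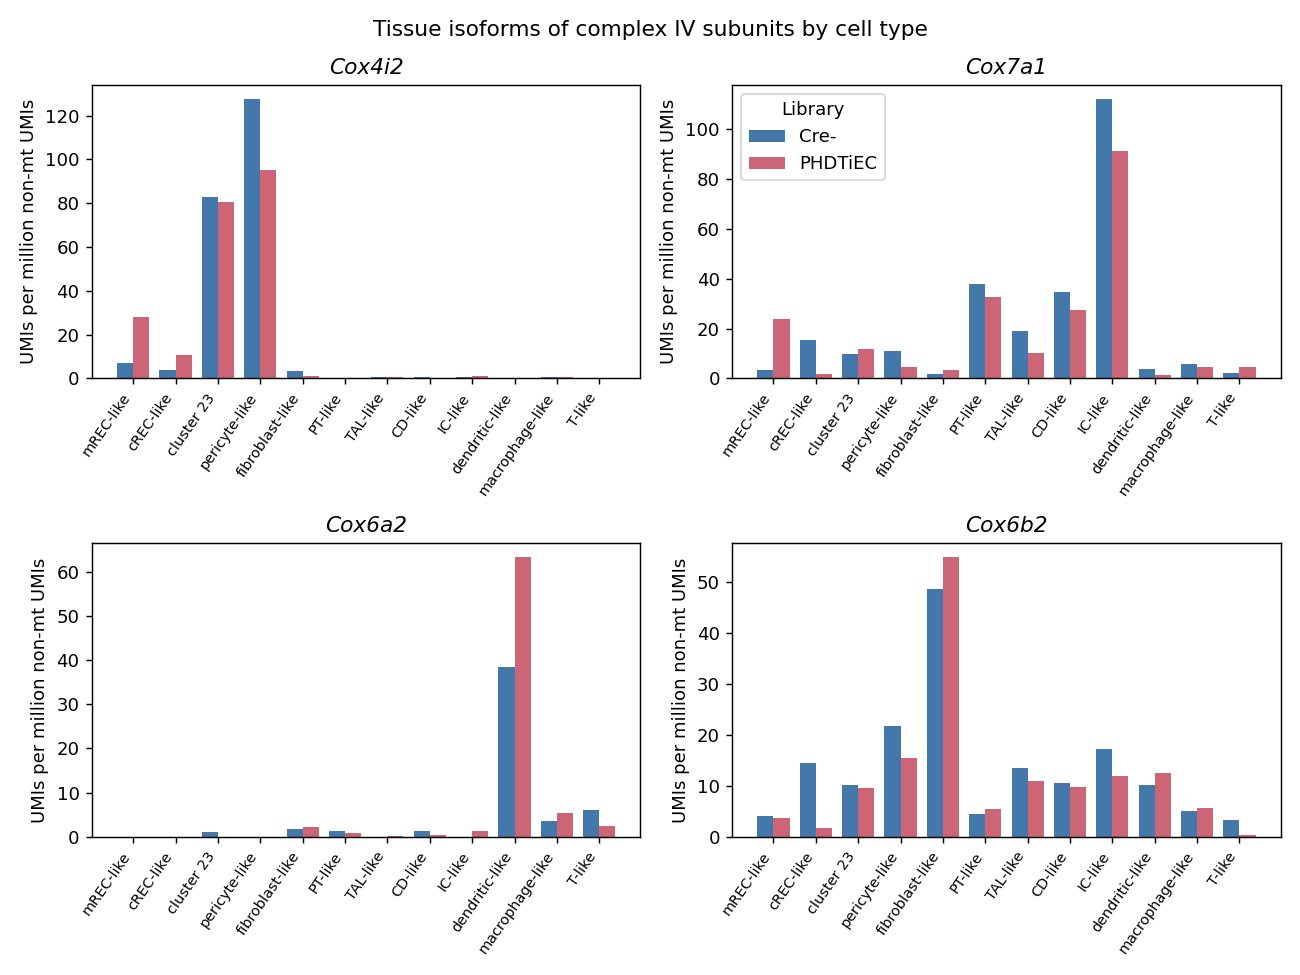
Levels in CPM (per 1000000 non-mt UMIs) of Cox4i2, Cox7a1, Cox6a2 and Cox6b2 in 12 cell classes, with 1 bar per library (blue Cre-, red PHDTiEC) and no error bars because each genotype is 1 library. Cox4i2 is highest in pericyte-like cells (128 and 95.4), Cox7a1 in IC-like (112 and 91.1), Cox6a2 in dendritic-like (38.4 and 63.4) and Cox6b2 in fibroblast-like cells (48.6 and 54.8).

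Cox7a1, the isoform of heart and skeletal muscle, was highest in IC-like cells at 112 and 91.1 CPM and in PT-like cells stood at 37.7 and 32.5. Its values in mREC-like cells were 3.54 and 23.97 (2.76, 1.55 to 4.26), from 6 UMIs in 6 cells and 59 UMIs in 33 cells. The ratio was 1.42 when the mean over cells was taken, and 1.12 where types were called from markers without clusters. In cREC-like cells the order was opposite, with 16 and 2 UMIs. TAL-like cells had 18.9 and 10.1 CPM (-0.90, -1.23 to -0.57), making Cox7a1 the 1 nuclear member past -0.5 there. Cox7a2 supplied 56.3% and 50.5% of the family in endothelial-like cells and 81.0% and 79.3% in PT-like cells.

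Cox6a2, a muscle isoform, was highest in dendritic-like cells at 38.4 and 63.4 CPM (0.72, 0.33 to 1.13), from 7 and 20 cells. Cox6b2, known from testis, was highest in fibroblast-like cells at 48.6 and 54.8 (0.17, -0.19 to 0.55). The common isoforms of endothelial-like cells lay below 0, with Cox6a1 at 340 and 253 CPM (-0.43), Cox6b1 at 580 and 434 (-0.42), Cox7b at 301 and 236 (-0.35) and Cox4i1 at 1070 and 869 (-0.30). Cox7b2, Cox8b and Cox8c had 0 UMIs in endothelial-like, PT-like and macrophage-like cells of both libraries. The 3 Atp5g genes encode the same mature c subunit, and Atp5g2 supplied 49.3% and 52.5% of their UMIs in endothelial-like and 50.7% and 52.8% in macrophage-like cells, against 24.6% and 26.9% in PT-like cells. Atp5g1 was the leading Atp5g gene in PT-like cells, with 41.5% and 40.5%.

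The mt-encoded ratio also lay below the nuclear ratio in the large classes outside the endothelium. In PT-like cells (453 and 632 barcodes) the nuclear ratio was -0.11 (-0.111 to -0.10) and the mt-encoded ratio -0.39. With the mitochondrial share limited to 20%, the mt-encoded ratio was -0.23. Of 79 nuclear members 0 lay past -0.5 (3.34% of all genes) and 0 past 0.5 (3.18%). Yet 72 were below 0, as were 51.3% of all genes with at least 100 UMIs. TAL-like cells (424 and 426) had ratios of -0.22 and -0.59, with 1 of 79 nuclear members past -0.5 (2.14%) and 0 past 0.5 (3.34%). In TAL-like cells 78 of 79 members were below 0, against 39.9% of all genes with at least 100 UMIs. Ndufs6, a complex I subunit, was among these members at 386 and 294 CPM (-0.39).

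Macrophage-like cells (2255 and 2497 barcodes), the largest class, had a nuclear ratio of -0.073 (-0.079 to -0.067) and an mt-encoded ratio of -0.53. None of 80 nuclear members lay past -0.5 (0 against 1.81% of all genes), and Cox6a2, at 3.55 and 5.42 CPM, was the 1 past 0.5 (1.8%). Ndufs4, a complex I subunit, was among the lowest at 95.01 and 78.4 (-0.28, -0.37 to -0.18). Here the mt-encoded ratio minus the nuclear ratio was -0.45, against -0.37 in TAL-like and -0.28 in PT-like cells, and mt-Atp6 stood at -0.73.

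Injured PT-like cells (277 and 244 barcodes), named from injury markers, carried less of the chain than PT-like cells in both libraries. The 6 injury markers summed to 3170 and 2711 CPM in these cells, but to 3900 and 3460 in TAL-like cells. The 10 PT markers summed to 452 and 347 CPM in injured PT-like cells, against 6574 and 5800 in PT-like cells. The nuclear sum was 37021 against 65422 CPM in the Cre- library (-0.82, -0.83 to -0.82) and 33871 against 60769 in the PHDTiEC library (-0.84, -0.85 to -0.84). The mt-encoded sum was 43148 against 138575 (-1.68) and 34081 against 105687 (-1.63). A log2 ratio past -0.5 was seen in 71 of 79 nuclear members in each library and in 70 in both, against 18.3% of all genes in the Cre- and 16.1% in the PHDTiEC library. Members' medians were -0.79 and -0.84, and those of all genes 0.075 and 0.12. The clusters compared were formed on other genes of the same cells, so these values describe the clusters and are no test.

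Each of the 5 complexes was lower in injured PT-like cells of both libraries. Nuclear ratios were -0.70 and -0.70 for complex I, -0.86 and -0.96 for complex II, -0.95 and -0.97 for complex III, -0.87 and -0.90 for complex IV and -0.84 and -0.87 for complex V. mt-Nd4l was the lowest member at -2.38 and -2.27, although it was among the highest in the comparison of libraries. Cox7a1 had the lowest nuclear ratio at -2.11 and -1.99, from 37.7 to 8.72 CPM in the Cre- library. A few members lay near 0, namely Ndufa7 (-0.066 and -0.069), a complex I accessory subunit, Cox7a2l (-0.025 and -0.13) and Atp5g2 (-0.18 and -0.29). Cox6b2 was above 0 in both (0.45 and 0.14) at 4.54 to 6.21 CPM, with intervals that reached 0.

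**Figure D5:**
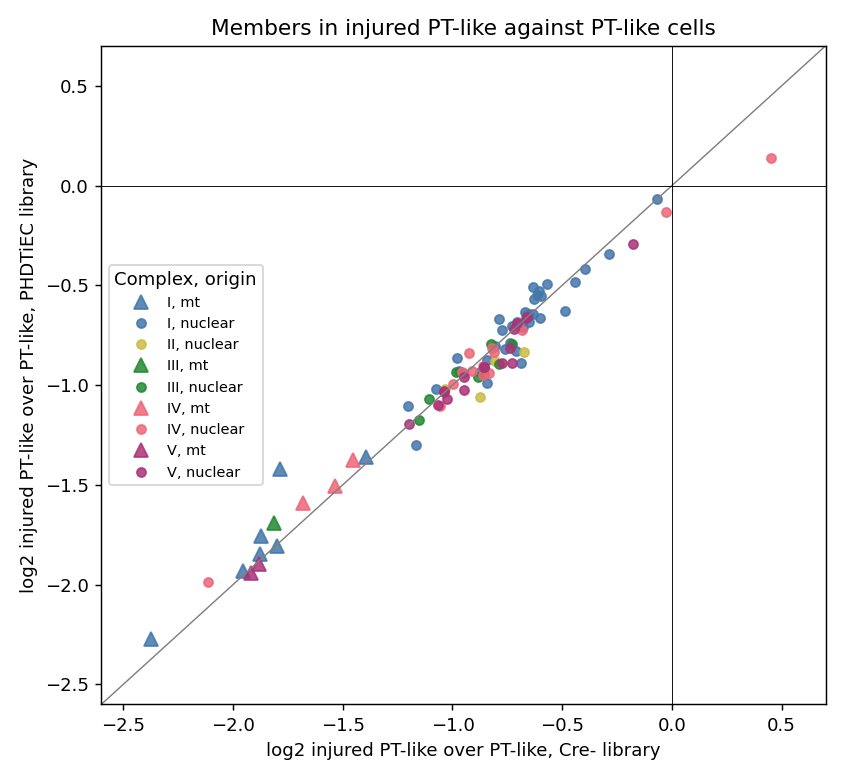
Log2 ratio of injured PT-like over PT-like cells for 92 chain genes, in the Cre- library (horizontal axis) against the PHDTiEC library (vertical axis), coloured by complex, with triangles for mt-encoded genes and a grey line of equal values. Nuclear genes gather around their medians of -0.79 and -0.84, mt-encoded genes lie lower, and Cox6b2 (0.45 and 0.14) lies apart at the upper right.

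Other genes of mitochondrial metabolism were read in endothelial-like cells from lists chosen by function, with the same threshold and the backgrounds of 4.82% lower and 4.89% higher. Assembly factors of the chain had 0 of 23 past the threshold in either direction, with a median of -0.14. Sdhaf1 and Sdhaf2, assembly factors of complex II, had the lowest values (-0.47 and -0.34), and Surf1 and Uqcc2, which serve complexes IV and III, the highest (0.15 and 0.11). Of 14 tricarboxylic acid cycle genes 1 was lower, Idh3a at 34.3 and 23.4 CPM (-0.56), and the median was -0.23. Idh3b, of the same enzyme, was -0.47, while Ogdh (0.15) and Sucla2 (0.12) had intervals that reached 0. For pyruvate entry 3 of 6 were lower and 1 higher. Mpc1 and Mpc2, the carrier that brings pyruvate into mitochondria, measured 163 and 105 (-0.64) and 204 and 129 (-0.67). Pdha1, a subunit of pyruvate dehydrogenase, was the third at 65.0 and 45.4 (-0.52), and Pdhb of the same enzyme was -0.0053. Pdk1, a kinase that switches off pyruvate dehydrogenase, measured 31.4 and 45.4 (0.53, 0.15 to 0.92).

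Among genes of mitochondrial transcription and biogenesis, 1 of 8 was lower, Tfam, which packages and transcribes the mitochondrial genome, at 35.8 and 23.1 CPM (-0.63, -1.07 to -0.20). Polg, the polymerase of the mitochondrial genome, was next at 27.8 and 19.8 (-0.49, -0.97 to -0.0026), and Nrf1 (0.11) and Tfb2m (-0.067) were the highest, with intervals that reached 0. Of chain parts outside the name rule 2 of 4 were lower, Atpif1, the inhibitor of ATP synthase, at 426 and 284 (-0.58) and Cyc1, the cytochrome of complex III, at 137 and 97.0 (-0.50). Ndufab1 was -0.48 and Cycs -0.15. These lower values stand beside the tubule RNA given above. In mREC-like cells, against backgrounds of 4.11% lower and 5.8% higher, 1 of 5 pyruvate entry genes was lower (Mpc1 at -0.58) and 1 higher (Pdk1 at 0.70), while Mpc2 was -0.35 and Pdha1 -0.41 (-0.82 to 0.0026). There 0 of 6 biogenesis genes and 0 of 4 other chain parts were past the threshold, with Tfam at -0.41 (-0.97 to 0.16) and Atpif1 at -0.33. Lower in these cells were 1 of 14 tricarboxylic acid cycle genes, Cs (-0.53), and 2 of 16 assembly factors, Sdhaf1 and Sdhaf2 (-0.54 and -0.56).

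Mitochondrial genes known to respond to low oxygen had the opposite direction. In endothelial-like cells 5 of 7 were higher (4.89% of all genes) and 0 lower (4.82%), with a median of 1.09 over 8 genes. The lists overlap, since Pdk1, counted under pyruvate entry, is also among these 5. Cox4i2, a chain member with under 100 UMIs, enters the median but not the count. Bnip3, a receptor for mitophagy, measured 25.2 and 250 CPM (3.31, 2.96 to 3.68), Ndufa4l2, the paralog of Ndufa4 that HIF is known to induce, 17.5 and 71.7 (2.03, 1.58 to 2.51) and Higd1a, a small protein found with complex IV, 123 and 344 (1.49, 1.31 to 1.66). Fundc1 (0.31) and Lonp1 (0.13) were the lowest of the list, with intervals that reached 0. In mREC-like cells Ndufa4l2 measured 4.72 and 101 CPM, from 8 and 249 UMIs, while Ndufa4 itself measured 533 and 381 (-0.48, -0.62 to -0.35). In PT-like cells 0 of 5 genes of this list were past 0.5 in either direction, with Bnip3 at 115 and 124. Among all genes there, 3.18% were higher and 3.34% lower, so 0 of 5 lies near that share.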

How the data were processed

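Single-cell 3′ libraries of 2 injured kidneys, 1 per genotype, were analysed. The authors deposited raw UMI counts per gene and barcode for all barcodes, made with Cell Ranger 4 on mm10 per the submitters' processing notes and file header. Barcodes with 500 to 100000 UMIs, at least 200 genes and at most 50% mt- UMIs were kept, and doublets were not removed in the values reported. Genes in at least 3 cells were normalised to 10000 UMIs per cell and clustered (2000 variable genes without chain and mt- genes, 20 components, resolution 0.8) with Seurat 5.3.0 in R 4.3.3. Clusters were named from marker lists. UMIs were summed per library and class with Python 3.11.15, numpy 2.4.6, pandas 2.3.3 and scipy 1.17.1, and divided by the sum of non-mt UMIs. With 1 library per genotype no test was run. Ratios carry exact Clopper-Pearson 95% intervals, and a ratio past 0.5 was counted where the libraries together held 100 or more UMIs of the gene. The interval and threshold steps were tested on simulated data.

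Members and lists were chosen with earlier results of these data known. Named genes are the 13 mt-encoded genes, the 5 highest and 5 lowest nuclear members per class compared, the isoform families, the 5 members of widest range and the 2 highest and 2 lowest genes of each other list in endothelial-like cells. A member that this rule names is not reported here. Ndufa7, Pdha1, Higd1a, the Egln genes and list genes in mREC-like and PT-like cells were chosen after their values were seen. Free RNA was estimated from barcodes under 100 UMIs by markers of other cell types. Gene positions are from GENCODE vM21 on GRCm38 (97 of 97 matched), promoters from RefSeq. Alternatives covered filters, doublets, scaling (TMM, edgeR 4.0.16), clustering and free RNA.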

Additional observations from a re-analysis of the deposited data

Results flagged for a closer look

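The nuclear sum in cluster 23, which carries endothelial and mural markers, was 0.039 (counting interval 0.022 to 0.055), while 11 of the 12 classes compared had intervals below 0 and 1 above. The mt-Nd4l ratio was 0.057 among PT-like cells, 0.16 among their injured counterparts and 0.24 in cluster 23, with intervals above 0 in these 3 classes and below 0 in 7 of 12. Each is a difference in direction between classes, and with 1 library per genotype these differences were not tested. The part of the overlap of mt-Nd4l with mt-Nd4 in the annotation was not tested.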

How the results depend on the processing

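Of 130 recomputed values of the summed ratios, 45 stayed within their counting interval, 83 moved beyond it and 2 turned in sign. Values are given as nuclear and mt-encoded. For endothelial-like cells, reported at -0.29 and -0.72, the ratios were -0.67 (mt-encoded) with at most 20% mt- UMIs, -0.73 (mt-encoded) from 1000 UMIs and 500 genes, -0.18 and -0.75 without the 7% highest doublet scores, -0.26 and -0.69 with mt- genes in the total, -0.31 and -0.74 without ribosomal genes, Gm42418 and Gm26917, -0.23 and -0.66 with TMM. Further values there were -0.15 and -0.51 as a mean over cells, 0.021 and 0.44 with free RNA subtracted, -0.17 and -0.58 with marker-based calls, -0.15 and -0.55 with cluster 23, -0.16 and -0.64 without tubular UMIs. For PT-like cells, reported at -0.11 and -0.39, the ratios were -0.23 (mt-encoded) with at most 20% mt- UMIs, -0.12 and -0.39 without the 7% highest doublet scores, -0.064 and -0.35 with mt- genes in the total, -0.10 and -0.38 without ribosomal genes, Gm42418 and Gm26917, -0.098 and -0.38 with TMM, -0.15 and -0.46 as a mean over cells. Further values there were -0.11 and -0.39 with free RNA subtracted, -0.026 and -0.23 at resolution 0.4, -0.12 and -0.40 at resolution 1.2, -0.12 and -0.40 clustered with chain genes, -0.092 (nuclear) with marker-based calls. For TAL-like cells, reported at -0.22 and -0.59, the ratios were -0.19 and -0.48 with at most 20% mt- UMIs, -0.24 and -0.60 at complexity of 0.8 or more, -0.25 and -0.61 without the 7% highest doublet scores, -0.18 and -0.55 with mt- genes in the total, -0.25 and -0.62 without ribosomal genes, Gm42418 and Gm26917, -0.26 and -0.63 with TMM. Further values there were -0.28 and -0.69 as a mean over cells, -0.23 and -0.67 with free RNA subtracted, -0.58 (mt-encoded) at resolution 0.4, -0.58 (mt-encoded) at resolution 1.2, -0.56 (mt-encoded) clustered with chain genes, -0.56 (mt-encoded) with marker-based calls. For macrophage-like cells, reported at -0.073 and -0.53, the ratios were -0.46 (mt-encoded) with at most 20% mt- UMIs, -0.53 (mt-encoded) at complexity of 0.8 or more, -0.55 (mt-encoded) without the 7% highest doublet scores, -0.056 and -0.51 with mt- genes in the total. Further values there were -0.087 and -0.54 without ribosomal genes, Gm42418 and Gm26917, -0.53 (mt-encoded) as a mean over cells, -0.55 (mt-encoded) with free RNA subtracted, -0.089 (nuclear) with marker-based calls. For injured PT-like over PT-like cells, reported at -0.83 and -1.66, the ratios were -1.44 (mt-encoded) with at most 20% mt- UMIs, -0.86 and -1.76 without the 7% highest doublet scores, -0.72 and -1.55 with mt- genes in the total, -0.81 (nuclear) without ribosomal genes, Gm42418 and Gm26917, -0.76 (nuclear) as a mean over cells. Further values there were -0.90 and -1.93 with free RNA subtracted, -0.62 and -1.44 at resolution 1.2, -0.62 and -1.45 clustered with chain genes, -0.89 and -1.62 with marker-based calls.

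With free RNA subtracted, single genes of endothelial-like cells also turned in sign, namely Atp5g1 (0.35), mt-Atp6 (0.41), mt-Co2 (0.47), mt-Cytb (0.30), mt-Nd1 (0.030), mt-Nd2 (0.54) and mt-Nd4 (0.15). In cREC-like cells so did Atp5g3 (0.96), Cox8a (0.034), mt-Nd6 (0.11) and the nuclear (0.35) and mt-encoded (6.74) sums, the last being no measure of a change since the step left 179 CPM in the Cre- cells, and Ndufa10 (0.087) over barcodes without tubular UMIs. Of 2838 values of single genes and other classes, 2034 stayed within their interval. Nuclear members past -0.5 in cREC-like cells numbered 25 of 76 in the report, 4 of 73 without high doublet scores and 4 of 62 without tubular UMIs. They numbered 6 of 76 as a mean over cells and 3 of 73 with free RNA subtracted, where 28 were past 0.5. In endothelial-like cells the 2 became 0 without high doublet scores and with TMM, and 4 without ribosomal genes. At a threshold of 0.25, 47 of 77 nuclear members of endothelial-like cells were lower, and at 1, 0 were. The share of all genes was counted only for the reported values at 0.5, so the counts of other settings have no background beside them. Across named classes, mt-encoded sums were lower in the PHDTiEC library in every class and setting except in 18 of 19 from 1000 UMIs and 17 of 19 with free RNA subtracted. Nuclear sums were lower in 18 of 19 classes, and in 19 of 19 without high doublet scores and clustered with chain genes, 15 of 19 with free RNA subtracted, 14 of 15 at resolution 0.4 and 16 of 17 with marker-based calls. The cause of these shifts was not tested. TMM and resolution 0.4 gave no value for injured over PT-like cells, in the second case because no injured class formed. Pooling cluster 23 and leaving out tubular UMIs were chosen after seeing the data. No paired analysis was possible because each genotype has 1 library. Depth limits isoforms such as Cox4i2 and Cox7a1, whose endothelial values rest on under 100 UMIs per library.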
